A study of Mus musculus with 2 samples.

Results

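The genes of the constitutive proteasome were followed in immune cells of subcutaneous tumors of MC38, a colon carcinoma line of the mouse. They were taken by name: every gene counted in both libraries whose symbol begins with Psma, Psmb, Psmc, Psmd or Psme. The interferon-inducible catalytic subunits Psmb8, Psmb9 and Psmb10 were left out, as were symbols with -ps, a mark of pseudogenes. That gave 42 of the 32285 genes. They comprise 8 genes of the alpha ring (Psma1 to Psma8), 8 of the beta ring (Psmb1 to Psmb7 and Psmb11), 6 ATPases (Psmc1 to Psmc6), 11 non-ATPase subunits of the cap, the 3 base assembly chaperones Psmd5, Psmd9 and Psmd10, and 4 genes of activators, Psme1 to Psme4. The last 2 genes, Psmc3ip and Psme2b, share only the name or a sequence, since Psmc3ip encodes a protein of meiotic recombination and Psme2b is a retrotransposed copy of Psme2. Psme1 and Psme2, which are known targets of interferon, were set against the other 40 genes throughout.

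The proteasome is the enzyme complex that degrades proteins marked with ubiquitin. Its barrel-shaped 20S core is built of alpha rings that form the gate and beta rings that hold the proteolytic sites, of which Psmb6, Psmb7 and Psmb5 encode the caspase-like, the trypsin-like and the chymotrypsin-like subunits. The 19S cap binds the barrel, and its ring of ATPases unfolds substrates and feeds them in, while non-ATPase subunits bind and remove ubiquitin. Other activators bind in place of the cap: PA28 alpha and beta (Psme1 and Psme2), which are induced by interferon-gamma and are linked to the making of peptides for antigen presentation, PA28 gamma (Psme3), which is nuclear, and PA200 (Psme4), a large nuclear activator. Cells that lack proteasome capacity raise all subunit genes together through the transcription factor Nfe2l1.

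CD45+ cells were sorted from tumors of wild-type mice (WT, male and female, 8 to 10 weeks old) and made into 10x Chromium 3′ libraries. The Control library came from tumors that were not irradiated, and the IR library from tumors given 20 Gy of ionizing radiation in a single dose and collected 4 days later. Each library held the cells of 4 pooled tumors, so each group was 1 library, differences between tumors could not be measured, and no test between conditions was possible. All intervals below cover counting error only, and radiation cannot be told apart from anything else that differed between the pools or library preparations. The sample records also name a narrower gate, CD45+CD11b+Ly6Chi, which goes against the T and natural killer (NK) cells found in both libraries.

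Barcodes with at least 1000 unique molecular identifiers (UMIs, each marking 1 captured RNA molecule) were kept, 4679 in Control and 3410 in IR after quality filters, with a median of 7302 and 8268.5 UMIs. The libraries shared 7 such barcodes. Cells were placed in lineages by marker genes, which gave 480 and 936 monocytes (Control and IR), 1977 and 411 macrophages, 194 and 203 dendritic cells, 445 and 316 T cells, 210 and 328 NK cells, and 25 and 164 neutrophils. All defining markers of each lineage were detected in it in both libraries. Macrophages of the IR library held more monocyte-marker RNA than those of Control, 1946 against 911 CPM for the summed list. The same list was higher in IR in T cells (2277 against 1261), dendritic cells (1235 against 813) and NK cells (1478 against 1157), and the NK list was higher in IR T cells (1849 against 1131). In neutrophils the monocyte list was higher in IR (2937 against 1481), and their own neutrophil list was lower (51429 against 87359). The part of this in the results was not tested. CPM stands for UMIs per 1e+06 UMIs of all genes, summed over the cells of a lineage and library. Since only 3′ ends were counted, CPM is not scaled by length and levels of different genes are not compared as molecules of protein.

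Nearly all of the genes were detected in every lineage. With at least 20 UMIs over both libraries, the members that could be compared were 39 of 42 in monocytes, 41 in macrophages, 39 in dendritic cells, 40 in T cells, 40 in NK cells and 33 in neutrophils. Psmb11, the beta subunit of the thymus proteasome, had no UMI in any of these lineages. Psma8, the testis alpha subunit, passed in macrophages alone, with 28 UMIs in Control and 2 in IR. Psmc3ip did not pass in monocytes, dendritic cells or neutrophils. In neutrophils Psmd3, Psmd5, Psmd9, Psmd10, Psme2b and Psme3 were also under 20 UMIs and were not compared one by one. All 42 genes stayed in the sums.

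The level of the machinery was much alike among the mononuclear lineages and far lower in neutrophils. In Control, the 40 genes other than Psme1 and Psme2 summed to 5590 CPM in monocytes (exact 95% Poisson interval 5507 to 5673), 5402 in macrophages (5369 to 5435), 5357 in dendritic cells (5246 to 5469), 5135 in T cells (5049 to 5223), 4598 in NK cells (4481 to 4717) and 1812 in neutrophils (1441 to 2249). The intervals of macrophages and dendritic cells overlapped, and all other neighbours in this order were apart. In IR the order changed, with dendritic cells at 6200 CPM (6097 to 6304), macrophages at 5870 (5802 to 5938), T cells at 5664 (5578 to 5751), monocytes at 5656 (5609 to 5704), NK cells at 5244 (5162 to 5328) and neutrophils at 2987 (2858 to 3119). T cells and monocytes did not differ there beyond counting error. Pooled dendritic cells stood apart for PA28: Psme1 and Psme2 made up 32.2% of their member UMIs in Control and 35.1% in IR. The share was 14.9% to 18.0% in monocytes, macrophages, T cells and NK cells of either library. In neutrophils it was 24.1% in Control and 21.7% in IR. Most of the dendritic cells were of the mature subset described below. In Control the pair summed to 3193 CPM in mature cells, 1718 in cDC1 and 1398 in cDC2.

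**Figure D1:**
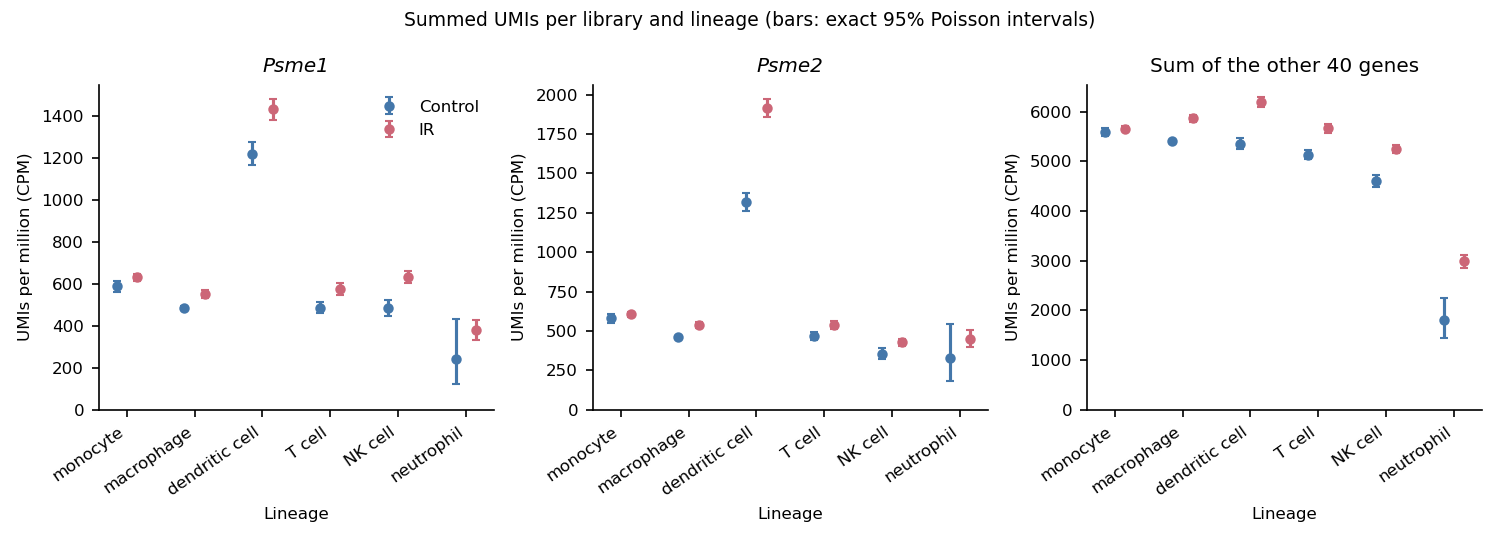
Summed CPM (y axis from 0) of Psme1, of Psme2 and of the other 40 genes, by lineage (x axis) in the Control (blue) and IR (red) library, with exact 95% Poisson intervals. Dendritic cells hold the highest Psme1 and Psme2 (1222 and 1320 CPM in Control), and neutrophils the lowest sum of the other genes (1812 CPM in Control).

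The comparison of IR with Control asks how the degradation machinery of each immune lineage differed after irradiation. The constitutive genes were slightly higher in IR in most lineages, by much less than the type I interferon genes. The sum of the 40 genes differed by a log2 ratio of 0.02 in monocytes (95% interval -0.01 to 0.04), 0.12 in macrophages (0.10 to 0.14), 0.14 in T cells (0.11 to 0.17), 0.19 in NK cells (0.15 to 0.23) and 0.21 in dendritic cells (0.17 to 0.25). In the same cells a list of 10 type I interferon genes such as Isg15, Ifit1 and Rsad2 was higher by 1.99, 2.56, 2.96, 1.48 and 2.56. Monocytes, which gave the most member UMIs in the IR library (66139), showed no difference in this sum beyond counting error. Parts of the sum did differ there, with the ATPases at 0.14 (0.05 to 0.22) and Psme3 with Psme4 at -0.29 (-0.47 to -0.10). The size depended on the total: with mitochondrial, ribosomal protein and interferon genes left out of it, the ratio was -0.03 in monocytes and 0.04 in macrophages, whose mitochondrial share was 5.99% in Control and 3.78% in IR.

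Counted gene by gene, more members were higher than lower in each lineage. In monocytes 26 of the 39 members were higher in IR (66.7%), against 44.5% of all genes tested. The counts were 28 of 41 in macrophages (68.3%, all genes 40.9%), 34 of 39 in dendritic cells (87.2%, all genes 48.6%), 32 of 40 in T cells (80%, all genes 47.5%) and 31 of 40 in NK cells (77.5%, all genes 46.1%). The median log2 ratio of the members was 0.07 in monocytes, 0.13 in macrophages, 0.21 in dendritic cells, 0.17 in T cells and 0.24 in NK cells, where the medians of all genes were -0.04, -0.08, -0.02, -0.03 and -0.04. Differences of single genes were small. Members at least 1.5 times higher in IR numbered 0 in monocytes (all genes 9.25%), 0 in macrophages (7.94%), 2 in dendritic cells (9.72%), 1 in T cells (9.85%) and 2 in NK cells (9.87%). At least 1.5 times lower were Psma8 and Psmc3ip in macrophages (all genes 13.1%), both of low count, and no member in monocytes (7.08%), dendritic cells (11.8%), T cells (7.55%) or NK cells (10.8%).

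By a stricter reading, a member was counted only where the Poisson intervals of its CPM in the libraries did not overlap. Higher in this sense were 17 of 41 members in macrophages (all genes 11%), 13 of 39 in dendritic cells (7.16%), 7 of 40 in T cells (7.36%), 7 of 40 in NK cells (4.88%) and 2 of 39 in monocytes, namely Psma5 and Psme1 (7.35%). Lower was a single member, Psme4 in macrophages (all genes 14.7%), and none in monocytes (7.85%), dendritic cells (6.15%), T cells (5.19%) or NK cells (5.08%). These shares depend on depth, since a gene with more UMIs has the narrower interval. Of the 39 members that could be compared in all 5 of these lineages, 17 were higher in each of them (all 7524 genes tested in these lineages 10.1%), 10 in 4 of them (13.6%), and 2, Psme3 and Psme4, were lower in each (13.9%).

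**Figure D2:**
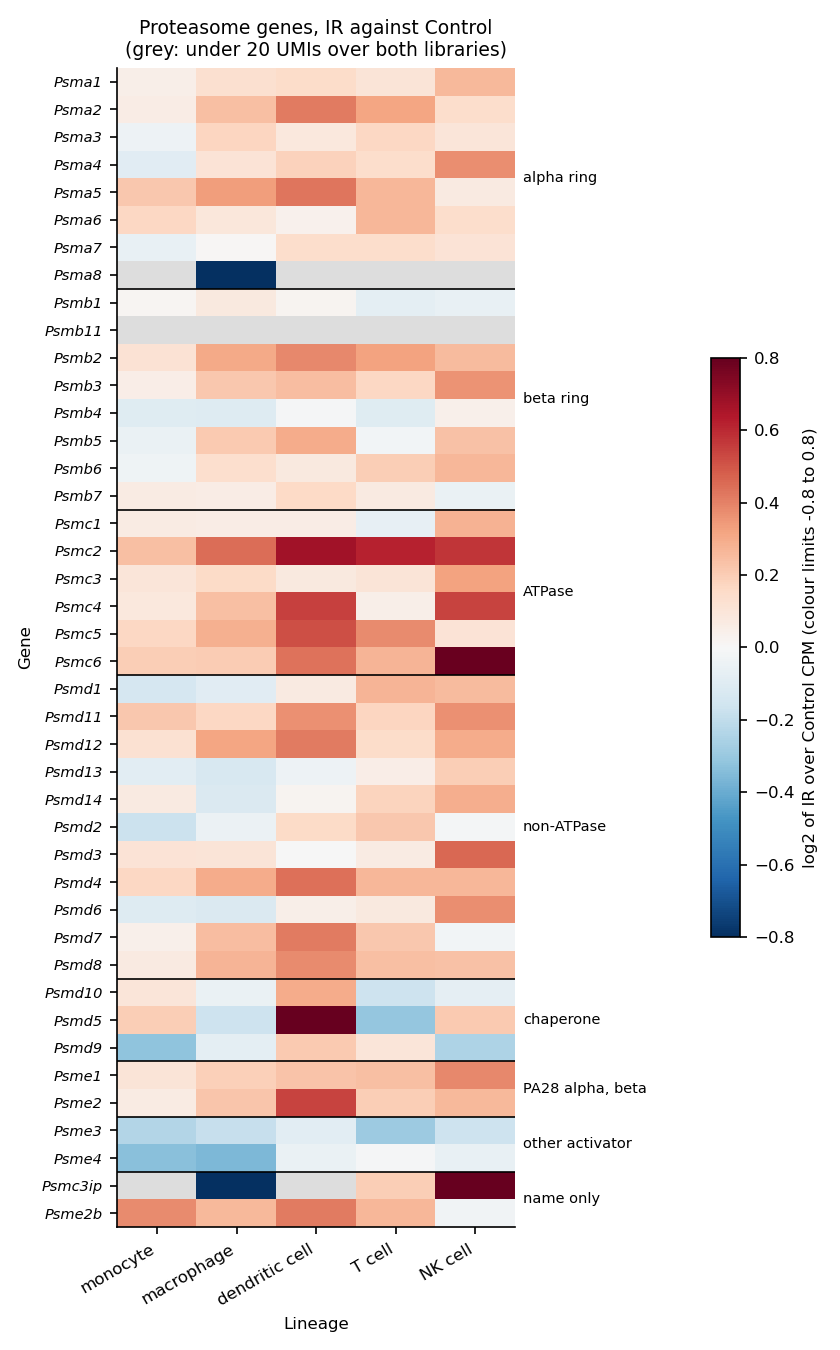
Log2 ratio of IR over Control CPM (colour, limits -0.8 to 0.8) for each of the 42 genes (rows, grouped by role) in 5 lineages (columns), with genes under 20 UMIs over both libraries in grey. The ATPase row of Psmc2 is red across all lineages (0.24 to 0.67), while Psme3 and Psme4 are at or under 0 in each.

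In the alpha ring, the summed log2 ratio was 0.01 in monocytes, 0.13 in macrophages, 0.20 in dendritic cells, 0.19 in T cells and 0.16 in NK cells. Psma5 was higher in all 5, at 134 CPM in Control and 156 in IR in monocytes (log2 ratio 0.22, 0.06 to 0.38), 121 and 153 in macrophages (0.33, 0.21 to 0.45), 161 and 217 in dendritic cells (0.43, 0.21 to 0.65), 120 and 144 in T cells (0.26, 0.05 to 0.48) and 119 and 125 in NK cells (0.07, -0.21 to 0.35). Psma2, which like Psma5 is a structural subunit of the outer ring, went from 272 to 362 CPM in dendritic cells (0.41) and from 279 to 347 in T cells (0.31). Psma7, which had the most UMIs of the alpha ring, gave 589 and 565 CPM in monocytes (-0.06) and 467 and 471 in macrophages (0.01), but 358 and 395 in T cells (0.14, 0.02 to 0.27) and 505 and 557 in dendritic cells (0.14, 0.02 to 0.27). Of the 3′-end 50-base words of Psma5 and Psmb5, 48.6% and 54.5% also occur in pseudogenes that were not counted, so reads of these copies could not be told apart.

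In the beta ring, the catalytic subunits and their neighbours did not move together. Psmb2 and Psmb3, which carry no active site, were higher in all 5 lineages. Psmb2 went from 205 to 253 CPM in macrophages (0.30, 0.21 to 0.40), from 208 to 271 in dendritic cells (0.39, 0.19 to 0.58) and from 198 to 247 in T cells (0.32, 0.16 to 0.49). Psmb4, also without an active site, had the lowest ratio of the ring in 4 of the 5 lineages, and went from 320 to 297 CPM in macrophages (-0.11, -0.19 to -0.02). Of the catalytic subunits, Psmb5 was higher in macrophages (230 and 266 CPM, 0.21), dendritic cells (198 and 244, 0.30) and NK cells (193 and 227, 0.23), but not in monocytes (253 and 244, -0.05) or T cells (227 and 223, -0.02). Psmb6 lay between -0.04 and 0.26 on the log2 scale and Psmb7 between -0.05 and 0.16, and no interval of Psmb7 excluded 0.

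The ATPases of the 19S cap had the highest ratio of summed CPM among the 4 kinds of 26S subunit, but in each of the 5 lineages their interval overlapped that of at least 1 other kind. In T cells these were the alpha ring (0.13 to 0.25), the beta ring (0.02 to 0.13) and the non-ATPase subunits (0.11 to 0.25). Their summed log2 ratio was 0.14 in monocytes (0.05 to 0.22), 0.22 in macrophages (0.15 to 0.28), 0.37 in dendritic cells (0.24 to 0.49), 0.21 in T cells (0.10 to 0.31) and 0.42 in NK cells (0.28 to 0.56). All 6 of the ATPases were higher in 4 of the 5 lineages, and in T cells 5 were, Psmc1 being the exception (77.1 and 73.7 CPM). Psmc2, which encodes the Rpt1 ATPase, had the highest ratio of the 6 in all but NK cells, where Psmc6 did. It went from 47.4 to 56.1 CPM in monocytes (148 and 538 UMIs, log2 ratio 0.24, -0.02 to 0.51), from 47.7 to 65.0 in macrophages (918 and 318 UMIs, 0.45, 0.26 to 0.63), from 51.5 to 81.9 in dendritic cells (85 and 183 UMIs, 0.67, 0.29 to 1.06), from 50.5 to 77.5 in T cells (131 and 226 UMIs, 0.62, 0.30 to 0.94) and from 47.6 to 70.9 in NK cells (61 and 208 UMIs, 0.57, 0.16 to 1.01). Its Control level was almost the same in all 5 lineages and its IR level was not.

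The other ATPases were less even. Psmc6 (Rpt4) went from 53.1 to 91.6 CPM in NK cells (68 and 269 UMIs, 0.79, 0.40 to 1.19), the only member besides Psmc2 that was 1.5 times higher without overlap in any of the 5 lineages. Psmc4 (Rpt3) went from 88.4 to 129 CPM in dendritic cells (0.55, 0.25 to 0.84) and from 79.6 to 116 in NK cells (0.54, 0.22 to 0.87), but from 89.0 to 91.9 in T cells. Psmc5 (Rpt6) went from 79.4 to 103 CPM in T cells (0.38, 0.12 to 0.64) and from 79.9 to 114 in dendritic cells (0.52, 0.21 to 0.83). Psmc3ip, which shares only the prefix, had 8 UMIs in Control and 32 in IR in NK cells (0.80, -0.34 to 2.13) and 91 and 13 in macrophages (-0.83, -1.80 to 0.01), both within counting error.

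Among the 11 non-ATPase subunits, the sum differed by 0.03 in monocytes, 0.10 in macrophages, 0.24 in dendritic cells, 0.18 in T cells and 0.23 in NK cells. Psmd4, the ubiquitin receptor Rpn10, was higher in all 5, from 122 to 137 CPM in monocytes (0.17, 0.00 to 0.33), 116 to 142 in macrophages (0.30, 0.17 to 0.42), 137 to 185 in dendritic cells (0.44, 0.20 to 0.68), 127 to 152 in T cells (0.26, 0.06 to 0.47) and 114 to 137 in NK cells (0.26, -0.01 to 0.55). Psmd11 (Rpn6), a scaffold of the cap, was higher in all 5 as well (0.17 to 0.37), and so was Psmd12 (Rpn5), most in dendritic cells (52.1 and 69.4 CPM, 0.41, 0.03 to 0.81) and macrophages (53.1 and 66.0 CPM, 0.31, 0.13 to 0.49). Not all did so: Psmd2, the scaffold Rpn1, went from 138 to 123 CPM in monocytes (-0.17, -0.33 to -0.01), and Psmd13 (Rpn9) from 144 to 132 in macrophages (-0.13, -0.25 to -0.00).

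The base assembly chaperones, which help the ATPase ring to form, had few UMIs and no shared direction. Psmd9 was lower in monocytes (46.5 and 37.2 CPM, -0.32, -0.60 to -0.03), and in NK cells its interval held 0 (56.2 and 47.4 CPM, -0.25, -0.67 to 0.18). Psmd5 had 13 UMIs in Control and 33 in IR in dendritic cells (log2 ratio 0.91), which passed 1.5 times higher with an interval that held 0. In T cells it had 43 and 39 UMIs (-0.31, -0.97 to 0.35), and Psmd10 73 and 73 (-0.17, -0.66 to 0.32).

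Both nuclear activators were lower in IR in all 5 lineages, though few of the single values passed counting error. Psme4 (PA200) went from 58.3 to 46.2 CPM in monocytes (-0.34, -0.59 to -0.08) and from 43.5 to 33.9 in macrophages (-0.36, -0.61 to -0.12), and lay at 32.1 and 30.9 in dendritic cells, 33.5 and 33.3 in T cells and 28.1 and 26.9 in NK cells. Psme3 (PA28 gamma) gave 52.2 and 44.4 CPM in monocytes (-0.23, -0.50 to 0.04), 59.5 and 52.3 in macrophages (-0.19, -0.39 to 0.01), 37.5 and 35.4 in dendritic cells (-0.09), 75.5 and 61.7 in T cells (-0.29, -0.59 to 0.01) and 74.9 and 66.8 in NK cells (-0.17). Summed, they differed by -0.29 in monocytes (-0.47 to -0.10), -0.26 in macrophages (-0.41 to -0.10), -0.07 in dendritic cells (-0.43 to 0.29), -0.20 in T cells (-0.44 to 0.04) and -0.14 in NK cells (-0.44 to 0.17).

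Psme1 and Psme2 lie beside each other on chromosome 14 of the mouse genome (build mm10), Psme1 on the plus strand at chr14:55578123-55581529 and Psme2 on the minus strand at chr14:55587441-55591113. Interferon acts on promoters through elements such as the ISRE, whose core was searched as GAAA, any 2 bases and GAAA again, on both strands in the windows of 250 bases before and 50 after each RefSeq start site (GRCm38.p6). Of the 35 members with a window, 4 held a match (11.4%), against 3.99% of all 27025 genes. These are shown with the matched bases in capitals, 5′ to 3′ on the gene's strand, because Psme1 is among them and Psme2 is not. In Psme1 the match begins 9 bases after the start site, and in Psmd4, Psmd9 and Psmb3 it begins 80, 159 and 163 bases before it.
Psme1, chr14:55578493-55578522, plus strand: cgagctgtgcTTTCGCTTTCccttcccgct
Psmd4, chr3:95042675-95042704, minus strand: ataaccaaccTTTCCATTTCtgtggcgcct
Psmd9, chr5:123228021-123228050, plus strand: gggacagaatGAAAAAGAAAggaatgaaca
Psmb3, chr11:97703261-97703290, plus strand: cacagtgactTTTCACTTTCcgctttccat
The matches of Psme1, Psmd4 and Psmb3 lie on the strand opposite to the gene. A match describes letters in a window and not a bound site. Members without a window, inexact elements and elements outside the window were not searched. A gene not shown here, such as Psme2, may therefore still hold an ISRE. The GAS element, searched as TTCNNNGAA, was found in 1 of the 35 (Psmd2, 2.86%, all genes 9.55%). The core of the antioxidant response element that Nfe2l1 and Nfe2l2 can bind, searched as TGACNNNGC, was found in 6 (17.1%, all genes 14%), namely Psmb5, Psmb6, Psmc6, Psmd9, Psmd12 and Psme4. The CCAAT box was found in 14 (40%, all genes 41.1%), with Psmc2 among them.

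Psme1 was higher in IR in all 5 lineages. Its level went from 589 to 632 CPM in monocytes (log2 ratio 0.10, 0.03 to 0.18), 483 to 552 in macrophages (0.19, 0.13 to 0.25), 488 to 577 in T cells (0.24, 0.14 to 0.35), 484 to 632 in NK cells (0.38, 0.25 to 0.52) and 1222 to 1433 in dendritic cells (0.23, 0.15 to 0.31). It was the only member whose interval lay above 0 in every one of them. Psme2 went from 580 to 607 CPM in monocytes (0.07, -0.01 to 0.14), 461 to 538 in macrophages (0.22, 0.16 to 0.29), 469 to 538 in T cells (0.20, 0.09 to 0.31), 357 to 428 in NK cells (0.26, 0.11 to 0.42) and 1320 to 1917 in dendritic cells (0.54, 0.46 to 0.61). Psme2 and its retrocopy Psme2b, on chromosome 11, share 32.1% and 55.2% of their 3′-end 50-base words with each other, so that some reads of either could not be told apart.

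Set against the other 40 genes, the interferon-inducible pair was ahead by a small margin. The log2 ratio of the pair exceeded that of the rest by 0.07 in monocytes (0.01 to 0.13), 0.09 in macrophages (0.04 to 0.14), 0.08 in T cells (-0.00 to 0.16), 0.14 in NK cells (0.03 to 0.25) and 0.19 in dendritic cells (0.12 to 0.25). The pair did not stand clear of single members. Of the other members tested, 12 of 37 had a higher ratio than Psme1 in monocytes, 14 of 39 in macrophages, 10 of 38 in T cells, 5 of 38 in NK cells and 17 of 37 in dendritic cells. For Psme2 the numbers were 18, 11, 13, 15 and 3. With Ccr2, Chil3 and Hp as the sole monocyte genes of the gate, the excess in monocytes was -0.00.

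The margin in dendritic cells came with a change in their makeup. Mature dendritic cells, marked by genes such as Ccr7 and Fscn1, were 129 of 194 in Control and 158 of 203 in IR, and they had the highest PA28 level of the subsets. In mature dendritic cells Psme1 and Psme2 summed to 3193 CPM in Control and 3861 in IR (log2 ratio 0.27, 0.21 to 0.34), and the other 40 genes to 4758 and 5811 (0.29, 0.24 to 0.34). Within this subset the excess was -0.01, with the pair and the rest higher by much the same factor. In cDC1, with 22 and 10 cells, the pair went from 1718 to 2457 CPM (0.52, 0.29 to 0.74) and the rest from 6528 to 7795 (0.26, 0.14 to 0.37). In cDC2, with 43 and 35 cells, the pair went from 1398 to 1548 CPM (0.15, -0.02 to 0.31) and the rest from 6120 to 7334 (0.26, 0.18 to 0.34). Psme1 and Psme2 differed from each other in mature cells, with 1447 and 1580 CPM for Psme1 (0.13, 0.03 to 0.22) and 1747 and 2281 for Psme2 (0.39, 0.30 to 0.47). Without cycling cells the excess over all dendritic cells was 0.00.

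Since the libraries differed so little in PA28 while the type I interferon genes differed so much, cells were also grouped within each library. The grouping used each cell's own share of the 10 type I interferon genes, in UMIs per 10000. A list of 12 interferon-gamma genes, such as Gbp2, Cxcl9 and Ciita, was not higher in sum in IR monocytes. It was 1896 CPM in Control and 1803 in IR (log2 ratio -0.07, -0.12 to -0.03), although 9 of the 12 genes were higher. In monocytes Psme1 was higher with each step of the type I share. It was 537 CPM in the 368 Control cells under 10, 760 in the 89 cells from 10 to 30 and 1021 in the 22 cells from 30 to 100, leaving out 1 cell above. In IR it was 495, 648 and 767 CPM in 366, 297 and 213 cells of these ranges and 955 in the 60 cells at or over 100. Psme2 followed, at 551, 637 and 1001 CPM in Control and 490, 614, 706 and 994 in IR. At a given type I share, Psme1 and Psme2 were therefore no higher in IR than in Control monocytes, and in some ranges they were lower with intervals apart. These were Psme2 under 10 (IR 468 to 514, Control 522 to 581), Psme1 from 10 to 30 (621 to 675 and 685 to 840), and from 30 to 100 both Psme1 (731 to 805 and 833 to 1240) and Psme2 (671 to 743 and 815 to 1218). The other 40 genes had no such gradient, with 5500, 6036 and 5696 CPM in Control and 5745, 5587, 5576 and 5830 in IR. Other lineages differed from monocytes at a given type I share. Under 10, Psme1 was 472 CPM (435 to 512) in Control and 611 (581 to 643) in IR NK cells, and the Psme2 intervals overlapped. In dendritic cells under 10, Psme1 was 1237 (1182 to 1293) and 1465 (1399 to 1533). Psme2 was 1325 (1268 to 1383) and 1787 (1714 to 1863) there. In macrophages and T cells under 10 the intervals of both genes overlapped. The picture depended on the list. Grouped by the interferon-gamma genes, monocytes under 10 had Psme1 at 427 to 495 CPM in Control and 501 to 551 in IR. Psme2 rose with that share too, and from 30 to 100 it was lower in IR (934 to 1114 and 832 to 930). Under 10 of that share, both genes were higher in IR with intervals apart in macrophages and T cells.

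**Figure D3:**
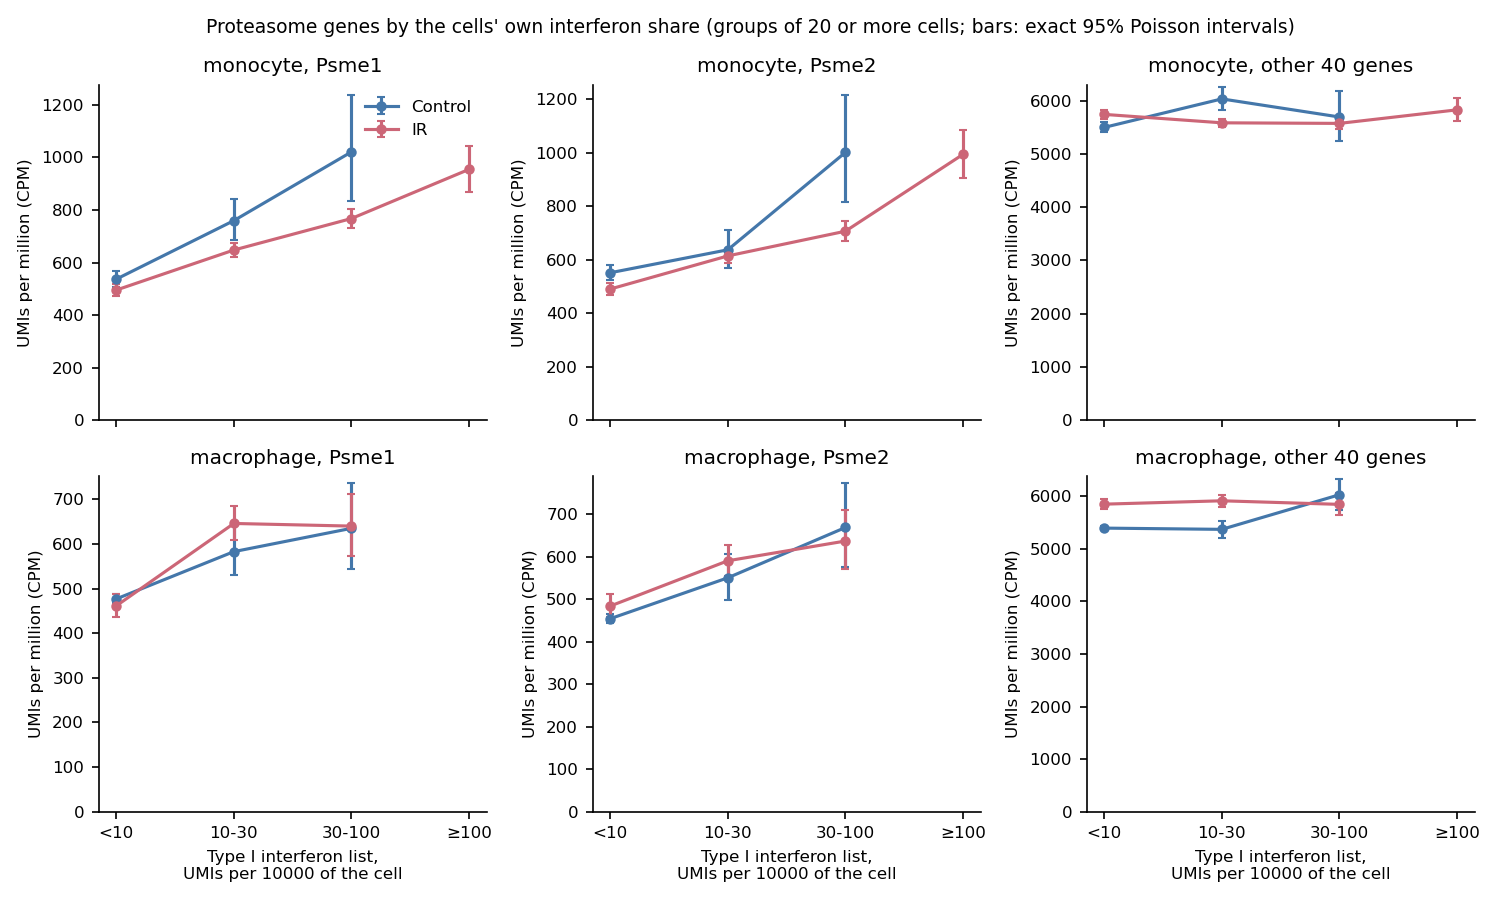
Psme1, Psme2 and the sum of the other 40 genes (CPM, y axes from 0) in monocytes and macrophages grouped by the share of type I interferon UMIs of each cell (x axis, UMIs per 10000), with Control in blue, IR in red and exact 95% Poisson intervals. Psme1 in IR monocytes climbs from 495 to 955 CPM over the 4 ranges, and the other genes stay between 5576 and 5830 CPM.

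In macrophages Psme1 was again lowest in the cells of the lowest share. Psme1 was 477 CPM in 1839 Control cells under 10, 583 in 104 cells from 10 to 30 and 635 in 33 cells from 30 to 100. In IR it was 461, 646 and 640 CPM in 206, 141 and 55 cells, and 917 (706 to 1171) in the 9 cells at or over 100. Grouped by the 12 interferon-gamma genes instead, Psme2 had the wider span in Control macrophages, with 353, 491, 662 and 783 CPM in 987, 593, 353 and 44 cells. In IR macrophages it was 430, 581 and 732 CPM in 195, 133 and 83 cells. In Control T cells it was 413, 631 and 966 CPM in 318, 96 and 30 cells of the interferon-gamma ranges. Dendritic cells were the exception for Psme1, which lay at 1465, 1414 and 1389 CPM over the type I ranges up to 100 in IR while Psme2 was 1787, 2051 and 2235. In the 3 IR dendritic cells at or over 100, Psme1 was 1126 CPM (841 to 1477) and Psme2 1646 (1297 to 2061). Depth also differed between ranges. Median UMIs per cell were 5241.5, 3230.5 and 2268.5 over these interferon-gamma ranges in Control T cells. Over the type I ranges they were 5700, 5306 and 4285.5 in Control monocytes and 8092, 8498, 8762 and 8064 in IR monocytes. The part of depth in these values was not tested.

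All members were then compared between cells of high share (30 or more) and low share (under 10) of the type I genes within the same library. In IR monocytes, with 273 and 366 cells, only Psme2b, Psme1 and Psme2 were at least 1.5 times higher of 39 members, where 9.78% of all genes were. Their log2 ratios were 1.46, 0.70 and 0.63. The median of the other 37 members was -0.04 and that of all genes -0.14. The next members were Psma5 (0.50) and Psma4 (0.32), and the lowest was Psme3 (-0.50). No member was at least 1.5 times lower there (all genes 17.4%). In Control monocytes, with 23 and 368 cells, Psme1 (0.90), Psme2 (0.81) and Psmd4 (0.78) were past 1.5 times higher (all genes 17.2%) and 8 members past 1.5 times lower (33.8%). In Control macrophages, with 34 and 1839 cells, Psma8, Psme2b and Psma5 were higher to this degree (all genes 15.8%) and 2 members lower (29.9%), with Psme1 at 0.42 and Psme2 at 0.55. Psma8 had 1 UMI and Psme2b 7 in the cells of high share, and the intervals of both ratios held 0. In IR macrophages, with 64 and 206 cells, Psme2b alone was higher to this degree (1.75, all genes 13.1%) and 2 members were lower (17.3%), with Psme1 at 0.54 and Psme2 at 0.37. In IR T cells, with 20 and 238 cells, 6 of 40 members were higher (all genes 20%) and 10 lower (29.6%), and in IR dendritic cells, with 26 and 123 cells, 3 of 39 were higher (13.1%) and 2 lower (24.2%). Psme2b had the highest ratio of the members in IR cells of all 4 lineages, on few UMIs, with 1.97 in T cells and 2.64 in dendritic cells. Here the cells of a range came from a single library, so these are descriptions of cells and not tests of a condition.

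**Figure D4:**
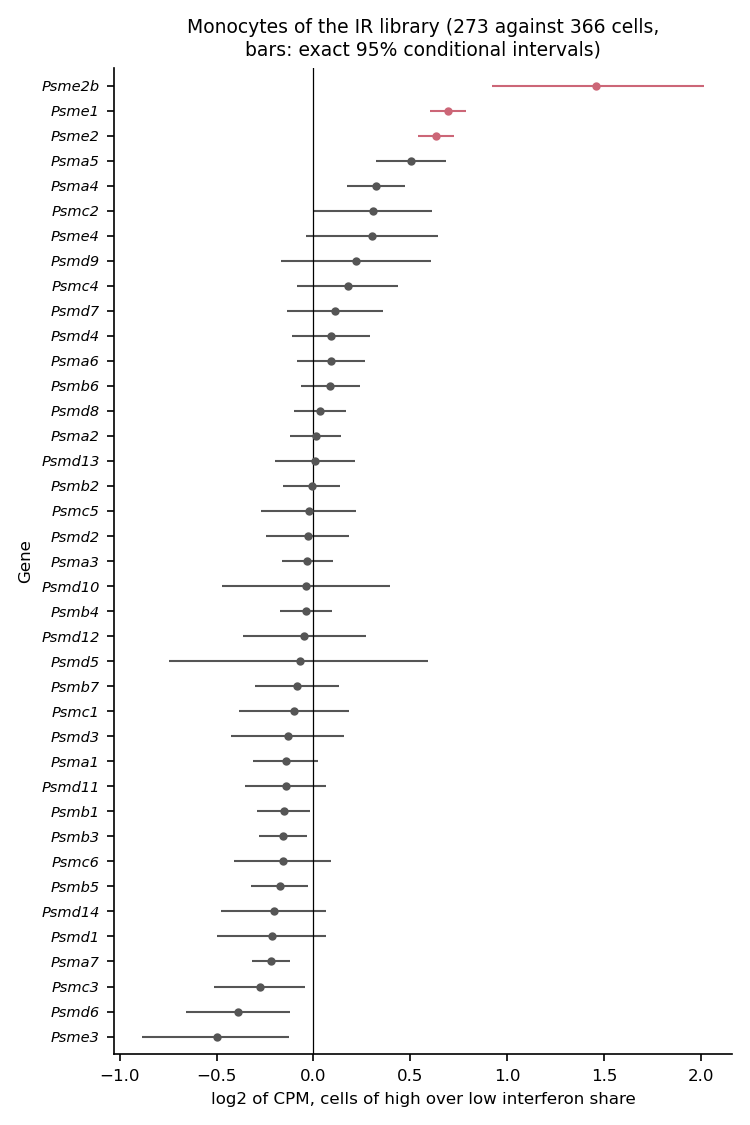
Log2 ratio of CPM (x axis) for 39 members (rows, sorted) between IR monocytes of high and of low type I interferon share, with exact 95% conditional intervals. Psme2b, Psme1 and Psme2 (red) are the top 3, at 1.46, 0.70 and 0.63, and the remaining members (grey) lie from -0.50 to 0.50.

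The constitutive genes differed within a library between cells called cycling and the other cells. A list of 11 cycling genes such as Mki67 and Top2a summed to 871 CPM in Control and 375 in IR macrophages, 1302 and 1035 in T cells, 623 and 758 in NK cells and 219 and 75.7 in monocytes. Cells with at least 3 UMIs of the list were called cycling, 572 in Control and 49 in IR macrophages, 94 and 77 T cells and 29 and 62 NK cells. That call follows the depth of a cell, so its shares were not compared between libraries. The part of depth in the differences below was not tested. In macrophages the 40 genes summed to 5690 CPM in cycling and 5203 in other Control cells (log2 ratio 0.13, 0.11 to 0.15), with 30 of the 31 26S subunits higher in cycling cells (all genes 53.1%). In IR they summed to 6420 and 5714 (0.17), with 26 of 31 higher (all genes 58%). The difference was wider in lymphocytes, with 5858 and 4704 CPM in Control T cells (0.32, 0.27 to 0.37), 6514 and 4858 in IR T cells (0.42, 0.38 to 0.47), 5555 and 4287 in Control NK cells (0.37, 0.29 to 0.45) and 6038 and 4751 in IR NK cells (0.35, 0.30 to 0.39). Monocytes went the other way, with 4997 CPM in 24 cycling and 5675 in 456 other Control cells (-0.18, -0.25 to -0.12) and 5465 and 5683 in IR (-0.06, -0.09 to -0.02).

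**Figure D5:**
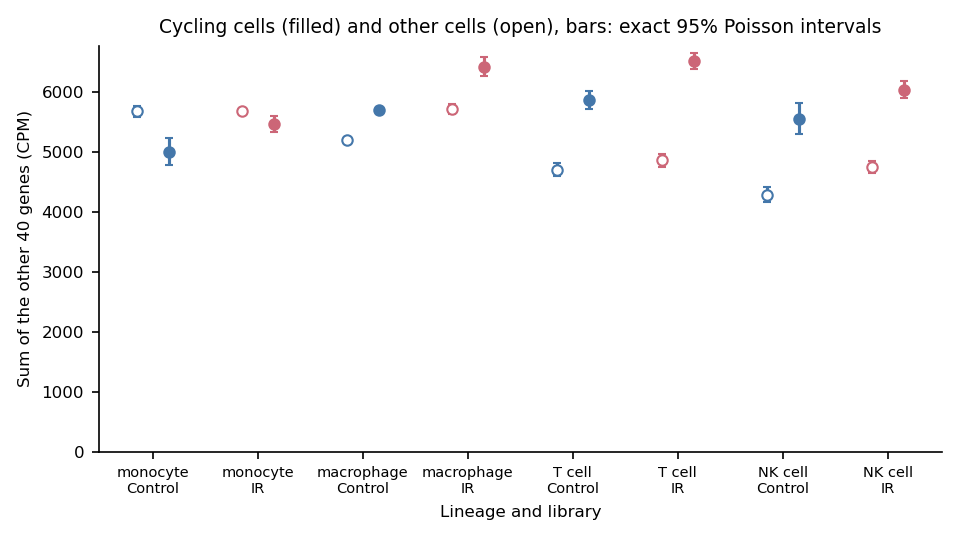
Sum of the 40 genes other than Psme1 and Psme2 (CPM, y axis from 0) in cycling cells (filled) and other cells (open) of 4 lineages in Control (blue) and IR (red), with exact 95% Poisson intervals. Cycling T cells, NK cells and macrophages lie above the other cells of their library, by up to 0.42 on the log2 scale, and cycling monocytes lie below.

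For PA28 the direction varied between lineages and libraries. Psme1 was 402 CPM in cycling and 616 in other Control monocytes, and 533 and 646 in IR. In macrophages it was 493 and 477 in Control and 516 and 563 in IR, in T cells 436 and 519 in Control and 569 and 584 in IR, and in NK cells 507 and 477 in Control and 590 and 658 in IR. Without the cycling cells, the log2 ratio of the 40 genes between IR and Control in T cells was 0.05 in place of 0.14, and in dendritic cells it was 0.25 in place of 0.21. Because the call follows depth, leaving these cells out also selects by depth. Its part in these ratios, and in the dendritic cell excess without cycling cells, was not tested. In macrophages, non-cycling cells gave 5203 CPM in Control and 5714 in IR.

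Neutrophils had too few UMIs for single members in Control, where 25 cells gave 108 member UMIs, against 2604 in 164 cells of IR. The sum of the 40 genes was 1812 CPM in Control and 2987 in IR (log2 ratio 0.72, 0.40 to 1.06), where the median of all genes was 0.29. With barcodes of at least 2000 UMIs the ratio was 0.00. Of 33 members, 27 were higher (81.8%, all genes 58.1%), and 17 were at least 1.5 times higher (all genes 38.3%) and 3 at least 1.5 times lower (23%). Psma7 alone was higher without overlap (2 and 177 UMIs, all genes 5.36%), with a log2 ratio of 2.55 and an interval from 0.68 to 5.61. No member was lower without overlap (all genes 5.07%). Psme1 had 11 and 259 UMIs (0.64, -0.22 to 1.66) and Psme2 15 and 307 (0.44, -0.30 to 1.30), and the excess of the pair over the rest was -0.19 with an interval from -0.84 to 0.46.

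The inducible catalytic subunits give the setting of these values. Psmb8, which replaces Psmb5 in the immunoproteasome, made up 68.0% of the UMIs of the 2 genes in Control and 72.0% in IR in monocytes, 66.4% and 66.3% in macrophages, 84.4% and 85.2% in dendritic cells and 71.2% and 77.8% in T cells. In NK cells it was 71.6% and 72.5%. The other pairs did not all move alike. Psmb9, set against Psmb6, was at 49.9% and 56.9% in monocytes, 48.4% and 48.3% in macrophages and 69.6% and 73.9% in dendritic cells. In T cells it was 51.8% and 53.7%, and in NK cells 52.7% and 48.2%. Psmb10, set against Psmb7, was at 74.4% and 73.4% in monocytes, 69.6% and 71.4% in macrophages and 65.3% and 68.2% in dendritic cells. In T cells it was 60.8% and 66.7%, and in NK cells 62.5% and 63.3%.

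A list of 30 other genes around the proteasome held its assembly factors, further cap subunits, ubiquitin genes, ubiquitin-handling proteins, proteasome-bound enzymes and regulators, without the inducible subunits. Of these, 7 were higher in IR in monocytes (all genes 44.5%), 10 in macrophages (40.9%), 18 in dendritic cells (48.6%), 20 in T cells (47.5%) and 20 in NK cells (46.1%), and the others were lower. Past 1.5 times without overlap were few. Rad23b, which shuttles ubiquitinated proteins to the proteasome, was lower in monocytes (90.4 and 60.2 CPM, -0.59, -0.79 to -0.38) and dendritic cells (116 and 74.8, -0.64, -0.94 to -0.33). Of the shuttle ubiquilins, Ubqln2 was lower in macrophages (21.5 and 11.6 CPM, -0.89, -1.31 to -0.48) and Ubqln4 in T cells (25.8 and 13.4, -0.95, -1.56 to -0.36). Nfe2l2, the regulator of antioxidant genes, was higher in T cells (52.0 and 86.7 CPM, 0.74, 0.43 to 1.05) and lower in neutrophils (552 and 276 CPM, log2 interval -1.61 to -0.34). Outside that list, the inducible subunit Psmb8 was higher in neutrophils (10 and 312 UMIs, 1.05, 0.15 to 2.12).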

How the data were processed

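CD45+ cells were profiled with 10x Chromium 3′ v3.1 chemistry, 1 library per group (Control and IR). The values deposited by the authors are counts of UMIs for each gene and barcode, unfiltered and not normalized. The submitters' processing notes name Cell Ranger 6.0.1 and mm10, while both matrix headers give version 4. The Control matrix holds 48593879 UMIs and the IR matrix 42406461.

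Barcodes were kept with at least 1000 UMIs, at least 200 genes and at most 25% mitochondrial UMIs. Cells were assigned to a lineage by the share of marker UMIs per 10000 (minimum 8 to 100 by lineage, at least 3 marker UMIs), with Lyz2, Csf1r and Cd68 separating myeloid from lymphoid cells. The minimum shares and these 3 genes were set after the data were seen. Barcodes over the minimum of another lineage (316 in Control, 228 in IR) were left out as mixed, and no doublet caller was used otherwise. UMIs were summed per lineage and library. Levels carry exact Poisson intervals and ratios exact conditional binomial intervals, at 95%. The interval of the excess of Psme1 and Psme2 is a normal approximation from the 4 counts. PCR and capture are not covered by them. With 1 library per group no p-value was computed. A member was compared with at least 20 UMIs over both libraries.

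Named genes were Psme1 to Psme4, the catalytic Psmb5, Psmb6 and Psmb7, each member 1.5 times apart without overlap, and the 3 highest and 3 lowest ratios per lineage among members with at least 50 UMIs. Other members named were chosen after their values were seen. The members and lists were chosen with earlier results of these data known, and Psme2b, Psma8 and Psmc3ip follow the name rule alone. Alternatives were another UMI minimum, no mitochondrial limit, thinned or stricter gates, Scrublet (scanpy 1.11.5), other totals, TMM (edgeR 4.0.16 in R 4.3.3), subtraction of free RNA, means over cells, no cycling cells and other member sets or filters. Python 3.11.15, numpy 2.4.6, scipy 1.17.1 and pandas 2.3.3 were used, and the interval code was tested on simulated data. Promoter windows are those of RefSeq.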

Additional observations from a re-analysis of the deposited data

Results flagged for a closer look

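Psme1 was also higher in RNA outside cells. In barcodes with at most 100 UMIs, which enter no comparison above and hold mostly free RNA, Psme1 was at 648.9 CPM in IR (interval 624 to 674) against 579 in Control (559 to 600), and its part in the cell sums was not tested beyond the subtraction below. Psme2 there was 597 against 554 CPM, the other 40 genes 6246 against 6167 and the type I interferon list 1501 against 321. Free RNA estimated from genes of other lineages made up 0% to 8.08% of the lineage sums, and with it subtracted the excess of the pair in dendritic cells was 0.20 in place of 0.19.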

How the results depend on the processing

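No paired analysis was possible because each group held 1 library. Of 138 alternative values of the ratios, 110 lay within the counting interval of the reported value and 28 outside it. The 110 include the values of the Psme1 and Psme2 excess under TMM scaling and under the other total. Both settings cancel out of the excess, so these values could not differ from the reported ones. The sign turned in 6, and in 2 of these the interval of the reported value held no 0. Of 18 alternative counts, 8 were within 1.5 times of the reported count. The causes were not tested. For the sums of the 40 genes (log2 ratio, IR over Control), leaving mitochondrial, ribosomal protein and interferon genes out of the total gave -0.026 in monocytes, 0.041 in macrophages, 0.14 in dendritic cells and 0.086 in T cells. TMM scaling gave 0.083, 0.15 and 0.26 in monocytes, macrophages and dendritic cells, 0.25 in NK cells and 1.13 in neutrophils. Means over cells gave 0.26 in dendritic cells, 0.16 in neutrophils, 0.054 in T cells and 0.14 in NK cells. Gates on thinned counts gave 0.042 in monocytes and 0.094 in macrophages. Without cycling cells it was 0.25 in dendritic cells and 0.047 in T cells. A monocyte gate of Ccr2, Chil3 and Hp gave 0.12 in monocytes. Mature dendritic cells alone, an alternative chosen after seeing the data, gave 0.29. In neutrophils it was 0.0014 from 2000 UMIs per barcode and 0.31 without the highest Scrublet scores.

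The excess of Psme1 and Psme2 turned to -0.0013 in monocytes under that monocyte gate, and to -0.014 in mature dendritic cells alone. It was 0.00040 in dendritic cells and 0.26 in NK cells without cycling cells, 0.15 in macrophages as a mean over cells, 0.16 in macrophages with the other monocyte gate and, in neutrophils, 0.64 from 2000 UMIs, 0.020 without the highest Scrublet scores and 0.068 as a mean over cells.

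Members past 1.5 times in either direction numbered 1 in place of 0 in monocytes with no filter on low counts. With at least 100 UMIs per member they were 1 in macrophages, dendritic cells and NK cells and 3 in neutrophils, in place of 2, 2, 2 and 20. With no filter they were 4 in dendritic cells. With 10 CPM added they were 0 in macrophages, dendritic cells and T cells and 1 in NK cells. Depth limits neutrophils most, with 108 member UMIs in Control.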

Other observations

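Lineages outside the main comparison held members too. Cells with fibroblast markers, 92 in Control and 93 in IR, had the highest sum of the 40 genes of the lineages compared, with 7498 CPM in Control (interval 7372 to 7625) and 9185 in IR (9079 to 9292), a log2 ratio of 0.29 (0.26 to 0.32). Psme1 and Psme2 together went from 572 to 813 CPM in them (0.51, 0.40 to 0.61), which is less than the 944 CPM of Control macrophages. Fibroblasts lack CD45, so these cells would not be held by a CD45+ sort. Myeloid cells without a lineage of their own, 352 in Control and 213 in IR, had 5746 and 5753 CPM for the 40 genes (0.00, -0.03 to 0.03) and 907 and 985 CPM for the pair (0.12, 0.04 to 0.20). Mast cells or basophils had 2092 and 2222 CPM for the 40 genes (0.09, -0.16 to 0.34), which placed them with the neutrophils at the low end. B cells, with 18 and 5 cells, were too few to compare.

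The UMIs of members per cell were higher in IR in each main lineage, with medians of 39 and 58 in monocytes, 52 and 67 in macrophages, 59.5 and 92 in dendritic cells, 26 and 34 in T cells, 24 and 35 in NK cells and 3 and 5 in neutrophils. These counts follow the depth per cell, and CPM is the scale on which the libraries were compared.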
